A study of Hordeum vulgare with 12 samples.

Results

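The genes described here are the 31 barley genes whose RNA level separated seedlings carrying the AtCKX1 transgene from wild-type seedlings in every stem base library at both ages. They were chosen by measured values, namely the CPM of all 12 libraries, the count of a gene scaled to 1000000 reads in genes. A gene with a mean of at least 1 CPM was kept when its lowest CPM in the 6 libraries of one genotype was at least 1.5 times its highest CPM in the 6 libraries of the other. The gene for a plasma membrane H-ATPase, MLOC_52920, was left out although it also separated the genotypes. Of 17812 barley genes (identifiers beginning with MLOC) that reached 1 CPM, 3 were higher in AtCKX1 (0.0168%) and 28 were higher in wild-type (0.157%). These shares come from the rule itself, so the levels of the genotypes are given below as a description with no test.

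RNA was sequenced from the stem base, the short segment from which crown roots (CR) emerge, in 3 libraries of each of 4 groups. These were AtCKX1 seedlings at 10 days after germination (10DAG), AtCKX1 seedlings at 1DAG, wild-type seedlings of the spring cultivar Golden Promise (cv. GP) at 10DAG and the same cultivar at 1DAG. AtCKX1 is an Arabidopsis gene for a cytokinin dehydrogenase, the labels describe its carriers as an overexpressing line, and the design text adds that they hold less cytokinin. By the study's methods, which describe the wild-type material, each sample pooled 5 seedlings, the younger ones grew on wet filter paper, the older ones had been moved into nutrient solution, and the older segments were cut longer. Age, culture medium and segment length therefore cannot be told apart. The promoter driving the transgene, the number of independent lines behind these libraries and the cultivar that was transformed are not given in the sources used here, so an effect of the transgene and any other difference between the line and the wild-type plants cannot be told apart either.

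Cytokinins are plant hormones that promote cell division in the shoot and restrain the formation of roots. Cytokinin dehydrogenases degrade them irreversibly, and plants with more of this enzyme commonly form a larger root system. The sources used here gave a function for 1348 genes, of which 1196 reached 1 CPM. Among the 31 genes this was so for MLOC_12653 alone, annotated as a disease resistance protein of the CC-NBS-LRR class. Proteins of this class are intracellular immune receptors with a coiled-coil domain, a nucleotide-binding domain and leucine-rich repeats, and they recognise pathogen molecules. The other 30 genes are named by their identifiers, with no function given. None of the 11 cytokinin genes fixed as a list, 8 of which reached 1 CPM, was among the 31.

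The AtCKX1 transgene had 42, 7 and 12 counts in the AtCKX1 10DAG libraries and 16, 11 and 18 counts in the AtCKX1 1DAG libraries, against 0 counts in each of the 6 wild-type libraries. The label of every library was thus matched by this row. Libraries held 38072347 to 48117821 reads in genes in AtCKX1 at 10DAG, 42364228 to 47683587 in AtCKX1 at 1DAG, 36100002 to 51997655 in wild-type at 10DAG and 39647015 to 49131251 in wild-type at 1DAG. Genes linked to crown root development were detected in all 12 libraries. CRL1.1 was at 9.09 to 13.9 CPM at 1DAG and at 4.16 to 8.59 CPM at 10DAG. The others were higher at 10DAG. They were a SCARECROW-like gene at 55.5 to 221 CPM and a PILS auxin efflux carrier gene at 1.28 to 9.55 CPM. The last was a type-B response regulator gene of the cytokinin pathway, at 8.17 to 30.5 CPM. The study saw no crown root primordia at 1DAG, so detection of these genes there does not mark primordia. The summed level of 12 photosynthesis genes, as markers of green shoot tissue, was 1217 to 1355 CPM in AtCKX1 at 10DAG against 894 to 1021 CPM in wild-type at 10DAG, and 193 to 217 CPM in AtCKX1 at 1DAG against 169 to 289 CPM in wild-type at 1DAG. Apart from primer targets, the functions at hand covered only genes the study had called higher at 10DAG in wild-type. The rise of this sum with age is therefore no independent evidence of more green tissue. In the study, photosynthesis was enriched among the genes lower at 10DAG. The part of shoot tissue in the levels below was not tested. The wild-type 1DAG libraries were the least alike, with a lowest pairwise correlation of 0.941 across genes (log2 CPM), against at least 0.973 within each of the other 3 groups. In bulk tissue, fewer cells of a type and less RNA per cell cannot be told apart.

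**Figure D1:**
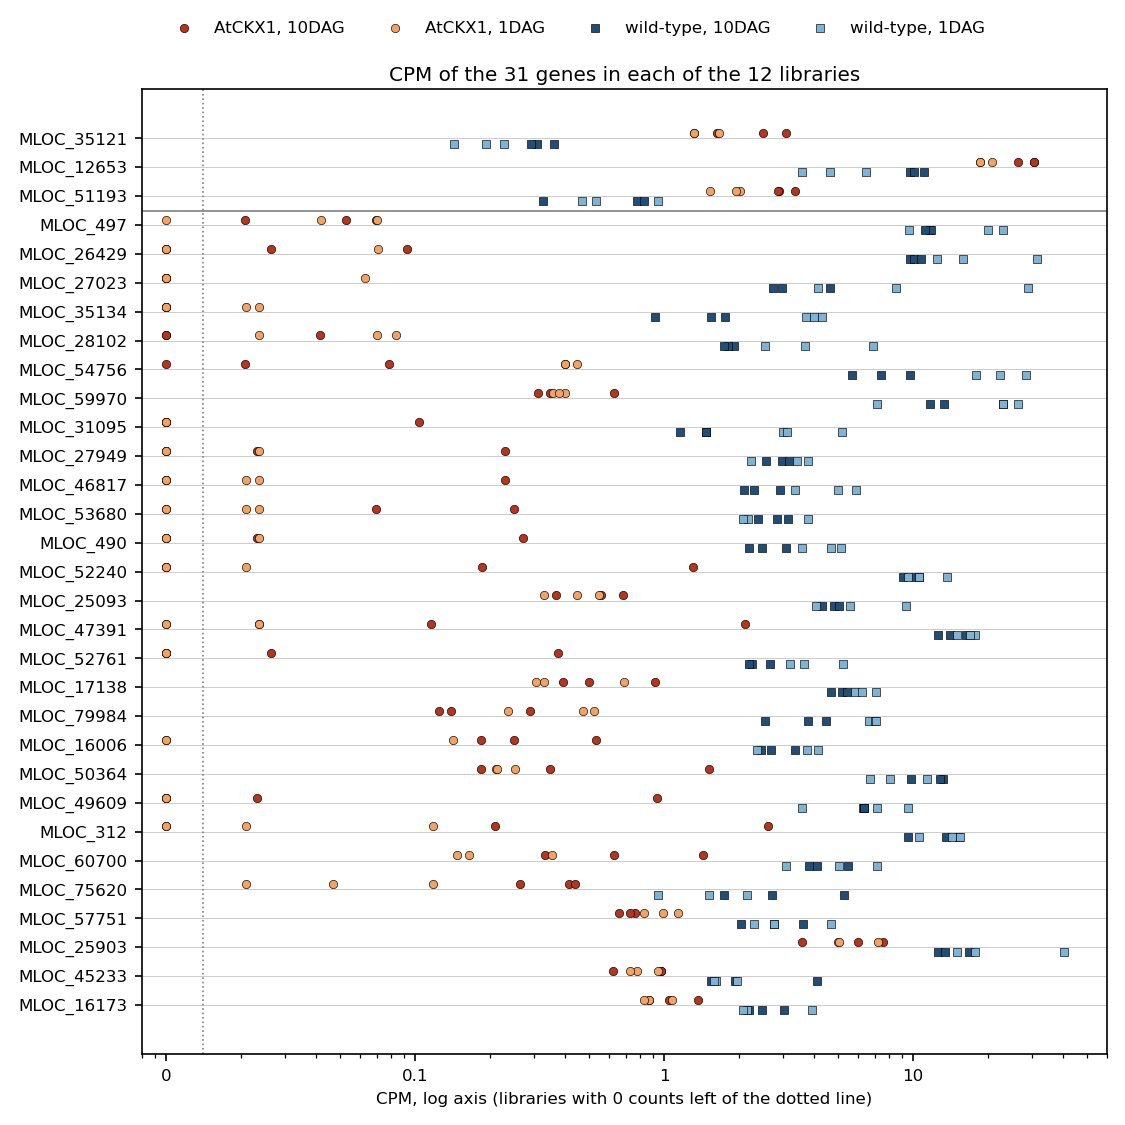
CPM of the 31 genes (log axis) in each library, with AtCKX1 libraries as circles and wild-type libraries as squares, darker at 10DAG. The 3 genes above the horizontal line were higher in AtCKX1 and the 28 below it were higher in wild-type, in order of the margin between the genotypes.

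The genes higher in wild-type were of low to moderate level. Their mean over the 6 wild-type libraries was 2.12 to 19.3 CPM (median 5.02), where the median of all genes that reached 1 CPM was 21.4 CPM over the 12 libraries. The wild-type mean was 2.54 to 826 times the AtCKX1 mean (median 41.4), and it was at least 10 times the AtCKX1 mean in 23 of the 28 genes. In 15 of the 28 genes the median AtCKX1 library was below 0.1 CPM. As described further below, 11 of the 28 genes were detected in AtCKX1 mainly in a single library.

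The 5 genes MLOC_497, MLOC_26429, MLOC_27023, MLOC_35134 and MLOC_28102, were near 0 in AtCKX1, meaning below 0.1 CPM in each of its 6 libraries. One count was worth 0.0208 to 0.0263 CPM in these libraries, and a count of 0 allows up to 3 counts, or 0.0624 to 0.0788 CPM. The widest margin of all 31 genes was that of MLOC_497. It had 0.0694, 0.0208 and 0.0525 CPM in AtCKX1 at 10DAG and 0.0704, 0.0419 and 0 CPM in AtCKX1 at 1DAG, against 11.7, 11.8 and 11.1 CPM in wild-type at 10DAG and 23.0, 19.9 and 9.66 CPM in wild-type at 1DAG. The lowest wild-type library was 137 times the highest AtCKX1 library. Its 11 counts over the 6 AtCKX1 libraries put the wild-type mean at 346 times the pooled AtCKX1 level, with an exact Poisson 95% interval of 194 to 694 that covers the counting error of AtCKX1 only.

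MLOC_26429 had 0.0925, 0 and 0.0263 CPM in AtCKX1 at 10DAG and 0, 0 and 0.0708 CPM in AtCKX1 at 1DAG. In wild-type it had 9.67, 10.1 and 10.8 CPM at 10DAG and 31.3, 15.8 and 12.5 CPM at 1DAG. The genotypes were 105-fold apart at their nearest libraries, and the 3 wild-type libraries at 10DAG lay within a narrow range while those at 1DAG did not. With 8 counts in AtCKX1, the wild-type mean was 492 times the pooled AtCKX1 level (95% interval 250 to 1140).

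MLOC_27023 had reads in a single AtCKX1 library. All of its 3 counts in AtCKX1 fell in 1DAG replicate 2 (0.0629 CPM), and the other 5 AtCKX1 libraries, including all 3 at 10DAG, had 0. Wild-type libraries had 2.98, 2.74 and 4.64 CPM at 10DAG and 28.9, 8.51 and 4.14 CPM at 1DAG, a 10.6-fold spread that was the widest within wild-type among the 28 genes. The wild-type mean was 756 times the pooled AtCKX1 level, with an interval of 259 to 3668 from the few AtCKX1 counts. The wide wild-type spread, which this interval leaves out, makes the ratio looser still.

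MLOC_35134 had 2 counts in all of AtCKX1, 1 each in 1DAG replicates 1 and 2, and 0 at 10DAG. It had 1.75, 0.914 and 1.54 CPM in wild-type at 10DAG and 4.29, 3.71 and 3.99 CPM in wild-type at 1DAG. The wild-type mean was 354 times the pooled AtCKX1 level (95% interval 97.9 to 2920). Here the wild-type ages did not overlap, and the wild-type 1DAG replicates were close together.

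MLOC_28102 had 0, 0.0416 and 0 CPM in AtCKX1 at 10DAG and 0.0704, 0.0839 and 0.0236 CPM in AtCKX1 at 1DAG. Wild-type had 1.90, 1.80 and 1.73 CPM at 10DAG and 6.90, 3.69 and 2.55 CPM at 1DAG. It was the gene of the 5 with the smallest ratio, 81.1 (95% interval 44.1 to 169).

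All 5 genes had their highest library in wild-type 1DAG replicate 1. That library was the highest of the 6 wild-type libraries for 14 of the 28 genes and the lowest for 3. How often it was the highest among all genes was not counted. The margin is set by the lowest wild-type library and not by the highest. Without wild-type 1DAG replicate 1, 5 genes were near 0 in AtCKX1. Being near 0 is set by the AtCKX1 libraries, so this number is no check on that wild-type library.

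Next in margin were MLOC_54756 and MLOC_59970. MLOC_59970 had 0.347, 0.312 and 0.630 CPM in AtCKX1 at 10DAG and 0.399, 0.356 and 0.378 CPM in AtCKX1 at 1DAG, against 22.9, 11.6 and 13.3 CPM in wild-type at 10DAG and 7.14, 23.0 and 26.2 CPM in wild-type at 1DAG. Every AtCKX1 library held 15 to 24 reads of it, so its transcript was scarce in AtCKX1 but present. MLOC_54756 had 0, 0.0208 and 0.0788 CPM in AtCKX1 at 10DAG and 0.446, 0.398 and 0.401 CPM in AtCKX1 at 1DAG, against 9.73, 7.40 and 5.69 CPM in wild-type at 10DAG and 22.2, 28.3 and 17.9 CPM in wild-type at 1DAG. Its ages did not overlap in either genotype, with the older seedlings lower in both.

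Another group of genes kept an AtCKX1 level of roughly the same order in every AtCKX1 library. MLOC_25093 was at 0.331 to 0.686 CPM (median 0.496) in the 6 AtCKX1 libraries against 4.09 to 9.32 CPM (median 4.90) in the 6 wild-type libraries. MLOC_17138 was at 0.305 to 0.919 CPM (median 0.446) in AtCKX1 against 4.65 to 7.06 CPM (median 5.63) in wild-type. MLOC_79984 was at 0.125 to 0.524 CPM (median 0.262) in AtCKX1 against 2.54 to 7.11 CPM (median 5.55) in wild-type. Wild-type means were thus 11.3, 10.9 and 17.7 times the AtCKX1 means for MLOC_25093, MLOC_17138 and MLOC_79984, ratios well below those of the genes near 0. MLOC_16006, MLOC_60700 and MLOC_75620 also belonged to the 28, with AtCKX1 libraries at 0 to 0.532, 0.147 to 1.43 and 0.0210 to 0.436 CPM against wild-type libraries at 2.36 to 4.13, 3.09 to 7.16 and 0.940 to 5.27 CPM. In these 3 genes the AtCKX1 level depended on age, as given below.

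The smallest differences were those of MLOC_57751, MLOC_25903, MLOC_45233 and MLOC_16173, whose wild-type means were 3.56, 3.36, 2.54 and 2.62 times their AtCKX1 means. MLOC_25903 was the most abundant of the 28 genes. It had 3.58, 6.03 and 7.57 CPM in AtCKX1 at 10DAG and 7.23, 4.99 and 5.05 CPM in AtCKX1 at 1DAG, against 12.6, 16.8 and 13.5 CPM in wild-type at 10DAG and 40.4, 14.9 and 17.7 CPM in wild-type at 1DAG. Its transcript was plain in both genotypes, which sets it apart from the genes near 0. MLOC_57751 was at 0.657 to 1.13 CPM in AtCKX1 against 2.04 to 4.68 CPM in wild-type. MLOC_45233 was at 0.623 to 0.972 CPM in AtCKX1 against 1.54 to 4.10 CPM in wild-type, and MLOC_16173 was at 0.826 to 1.37 CPM in AtCKX1 against 2.07 to 3.91 CPM in wild-type.

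MLOC_16173, MLOC_45233 and MLOC_25903 were also the genes just inside the limit of 1.5, with margins of 1.51, 1.58 and 1.67. Just outside it were MLOC_30245, MLOC_58232 and MLOC_73300, with margins of 1.45, 1.43 and 1.37. MLOC_73300 was at 4.19 to 9.09 CPM in AtCKX1 against 12.4 to 18.4 CPM in wild-type, values close in kind to those of MLOC_25903. The edge of the group was therefore gradual, and no gap in the margins marked it.

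A separate pattern appeared in AtCKX1 10DAG replicate 2. In 11 of the 28 genes this library was at least 3 times the next AtCKX1 library, a grouping made after the values had been seen and given with no test. These genes were MLOC_312, MLOC_47391, MLOC_52240, MLOC_50364, MLOC_49609, MLOC_52761, MLOC_490, MLOC_46817, MLOC_27949, MLOC_53680 and MLOC_31095. In that library they stood at 7.63% to 20.5% of the mean of the wild-type 10DAG libraries (median 12.7%), and 7 of the 11 were below 0.1 CPM in each of the other 5 AtCKX1 libraries.

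MLOC_47391 had 0.116, 2.12 and 0 CPM in AtCKX1 at 10DAG and 0.0235, 0 and 0.0236 CPM in AtCKX1 at 1DAG, against 14.1, 16.3 and 12.6 CPM in wild-type at 10DAG and 17.8, 14.99 and 16.9 CPM in wild-type at 1DAG. Its wild-type libraries were the most even of the 28 genes, with a 1.41-fold spread, while 102 of its 109 counts in AtCKX1 came from 10DAG replicate 2. MLOC_312 had 0.208, 2.62 and 0 CPM in AtCKX1 at 10DAG and 0, 0.0210 and 0.118 CPM in AtCKX1 at 1DAG, against 13.5, 15.3 and 9.57 CPM in wild-type at 10DAG and 14.4, 15.5 and 10.5 CPM in wild-type at 1DAG. The 126 counts of MLOC_312 in 10DAG replicate 2 have an exact Poisson 95% interval of 2.18 to 3.12 CPM, far above the other 5 AtCKX1 libraries, which held 15 counts together.

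MLOC_52240 had 0.185, 1.31 and 0 CPM in AtCKX1 at 10DAG and 0, 0.0210 and 0 CPM in AtCKX1 at 1DAG, against 10.2, 10.5 and 9.08 CPM in wild-type at 10DAG and 10.5, 9.57 and 13.7 CPM in wild-type at 1DAG. MLOC_49609 had 0.0231, 0.935 and 0 CPM in AtCKX1 at 10DAG and 0 CPM in all 3 AtCKX1 1DAG libraries, against 6.31, 6.34 and 6.35 CPM in wild-type at 10DAG and 3.56, 7.16 and 9.51 CPM in wild-type at 1DAG. In MLOC_49609 all but 1 of the 46 AtCKX1 counts lay in 10DAG replicate 2. MLOC_50364 differed from the others in being detected in every AtCKX1 library, at 0.347, 1.52 and 0.184 CPM in AtCKX1 at 10DAG and 0.211, 0.252 and 0.212 CPM in AtCKX1 at 1DAG, against 13.2, 12.8 and 9.81 CPM in wild-type at 10DAG and 11.4, 8.05 and 6.68 CPM in wild-type at 1DAG.

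The remaining 6 genes of this kind were scarcer. In AtCKX1 10DAG replicate 2 MLOC_52761, MLOC_490, MLOC_53680, MLOC_46817, MLOC_27949 and MLOC_31095 had 18, 13, 12, 11, 11 and 5 counts. In the other 5 AtCKX1 libraries together they had 1, 2, 5, 2, 2 and 0 counts. Their wild-type libraries spanned 2.20 to 5.25, 2.19 to 5.15, 2.07 to 3.78, 2.10 to 5.90, 2.24 to 3.79 and 1.15 to 5.20 CPM. For each of these 6 genes the AtCKX1 level outside replicate 2 was as low as that of the 5 genes near 0.

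The same library did not carry the other genes. AtCKX1 10DAG replicate 2 had 1, 0, 0, 0 and 2 counts of MLOC_497, MLOC_26429, MLOC_27023, MLOC_35134 and MLOC_28102, and 1 count of MLOC_54756. The summed level of the 11 genes was 0.995, 9.96 and 0.210 CPM in AtCKX1 at 10DAG and 0.282, 0.336 and 0.401 CPM in AtCKX1 at 1DAG. In wild-type the sum was 70.7, 75.7 and 62.8 CPM at 10DAG and 78.3, 76.6 and 83.8 CPM at 1DAG. Replicate 1 at 10DAG, with 43 counts over the 11 genes, was the next highest AtCKX1 library, and the other 4 had 8 to 17 counts.

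The other 17 genes summed to 10.3, 11.5 and 13.5 CPM in AtCKX1 at 10DAG and to 12.1, 11.0 and 10.1 CPM in AtCKX1 at 1DAG, with no library standing out. In wild-type the sum was 104, 97.4 and 92.4 CPM at 10DAG and 206, 153 and 129 CPM at 1DAG. The transgene was also lowest in AtCKX1 10DAG replicate 2, at 0.146 CPM against 0.231 to 0.971 CPM in the other 5 AtCKX1 libraries. With 7 counts there and 11 in AtCKX1 1DAG replicate 2, these libraries cannot be told apart in transgene level. Whether the transgene level had a part in the pattern was not tested. Without this library 12 of the 28 genes were below 0.1 CPM in every remaining AtCKX1 library, in place of 5.

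**Figure D2:**
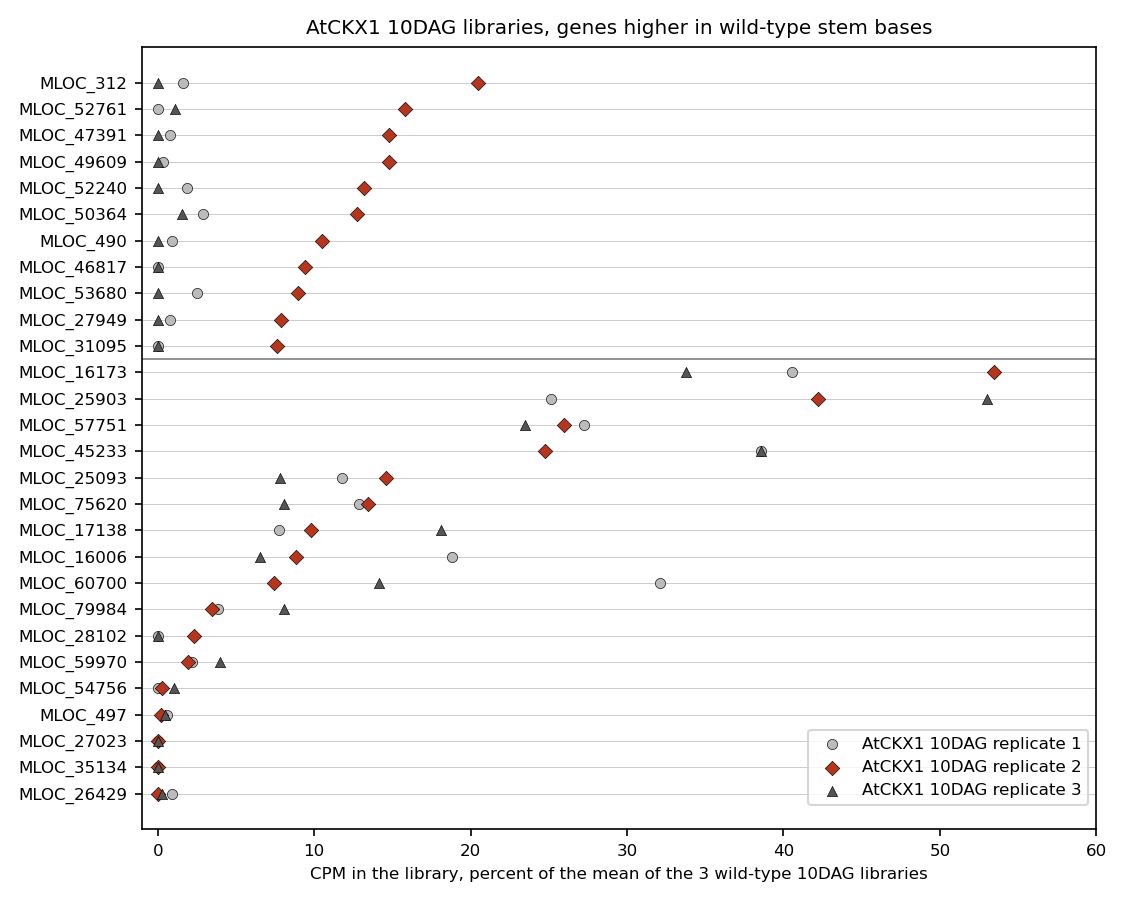
CPM of the 28 genes higher in wild-type in each AtCKX1 10DAG library, as a percentage of the mean of the 3 wild-type 10DAG libraries. In the 11 genes above the line replicate 2 lay at 7.63% to 20.5%, apart from the other replicates, while below the line the 3 replicates were mixed.

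**Figure D3:**
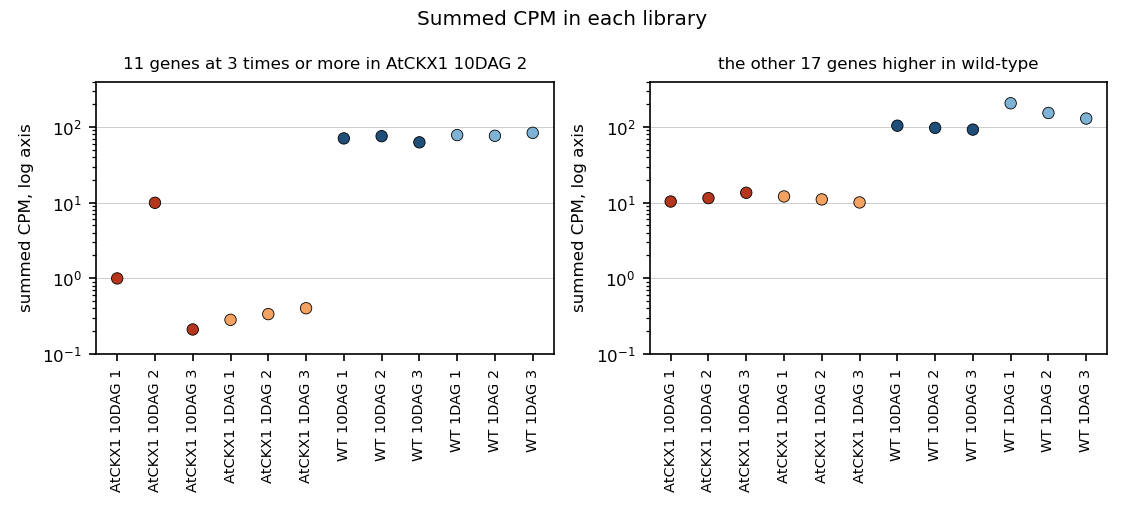
Summed CPM (log axis) in each library for the 11 genes with at least 3 times the next AtCKX1 library in AtCKX1 10DAG replicate 2 (left) and the other 17 genes higher in wild-type (right). Replicate 2 reached 9.96 CPM on the left, against 0.210 to 0.995 CPM in the other AtCKX1 libraries, and did not stand out on the right.

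In the opposite direction the genotypes were separated by 3 genes, and none of the 3 was near 0 in wild-type. MLOC_35121 had the widest margin, 3.67. It had 2.50, 3.08 and 1.63 CPM in AtCKX1 at 10DAG and 1.67, 1.32 and 1.32 CPM in AtCKX1 at 1DAG, against 0.308, 0.360 and 0.293 CPM in wild-type at 10DAG and 0.142, 0.193 and 0.227 CPM in wild-type at 1DAG. Over 6 libraries each it averaged 1.92 ± 0.712 CPM in AtCKX1 and 0.254 ± 0.0807 CPM in wild-type (SD, n = 6 each), which is 7.56 times as much in AtCKX1.

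MLOC_12653, the gene for a CC-NBS-LRR protein, was the most abundant of the 31 genes in AtCKX1. It had 30.6, 26.3 and 30.5 CPM in AtCKX1 at 10DAG and 18.5, 20.8 and 18.6 CPM in AtCKX1 at 1DAG. In wild-type it had 9.75, 10.0 and 11.0 CPM at 10DAG and 3.58, 4.63 and 6.48 CPM at 1DAG. The 4 groups did not overlap, with the older seedlings above the younger ones in each genotype and even the younger AtCKX1 seedlings above the older wild-type ones. It averaged 29.1 ± 2.47 CPM in AtCKX1 and 10.3 ± 0.676 CPM in wild-type at 10DAG, and 19.3 ± 1.31 CPM in AtCKX1 and 4.90 ± 1.47 CPM in wild-type at 1DAG (SD, n = 3 each).

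MLOC_51193 had 2.89, 2.87 and 3.36 CPM in AtCKX1 at 10DAG and 2.02, 1.53 and 1.94 CPM in AtCKX1 at 1DAG, against 0.327, 0.776 and 0.830 CPM in wild-type at 10DAG and 0.468, 0.940 and 0.530 CPM in wild-type at 1DAG. In AtCKX1 the ages did not overlap, whereas in wild-type they did. Just outside the limit in this direction were MLOC_59894, MLOC_3707 and MLOC_20532, with margins of 1.49, 1.40 and 1.38. MLOC_3707, annotated as a leucine-rich receptor-like protein kinase, was at 8.28 to 21.9 CPM in AtCKX1 against 1.20 to 5.93 CPM in wild-type.

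**Figure D4:**
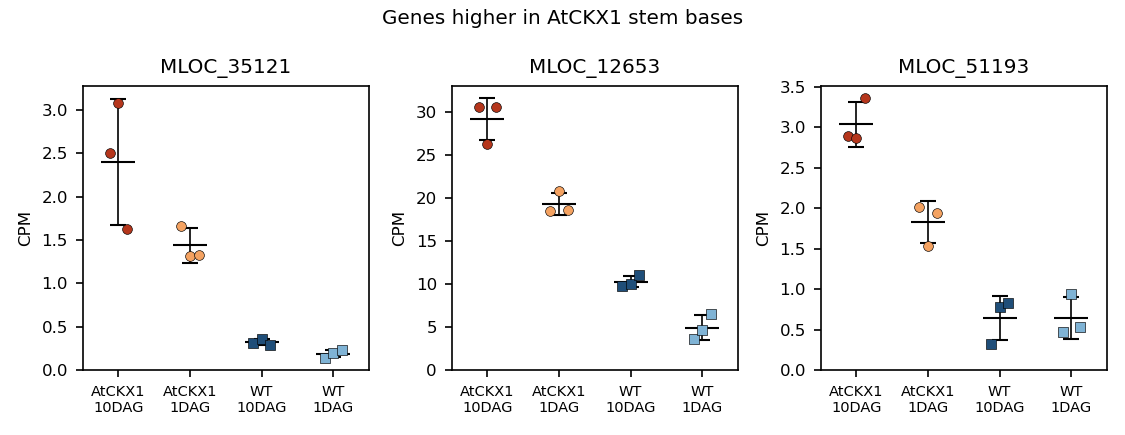
CPM of the 3 genes higher in AtCKX1, with a point per library and the mean and SD of the 3 libraries of each group as lines. All 6 AtCKX1 libraries lay above all 6 wild-type libraries, by margins of 3.67 for MLOC_35121, 1.67 for MLOC_12653 and 1.63 for MLOC_51193.

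The rule did not use the contrast of the ages itself, but it bounds how far an age effect could bring the genotypes together. The tests of ages below are therefore not fully independent of the choice of genes. This contrast was tested over all genes with edgeR's quasi-likelihood test. The limits were 0.05 on the Benjamini-Hochberg adjusted p and 1 on the log2 fold change in size. The AtCKX1 ages were fitted on all 12 libraries, and there all 31 genes passed the filter on low counts. With the 6 AtCKX1 libraries alone only 15 of the 31 passed it, the 3 genes higher in AtCKX1 and 12 of the 28 higher in wild-type, so the other 16 entered the test through their wild-type counts. In the AtCKX1 seedlings 8 of the 31 genes were higher and 2 were lower at 10DAG than at 1DAG, against 15.8% higher and 12.2% lower among all 20212 genes tested. In the wild-type seedlings 1 was higher and 4 were lower, against 14.4% and 11.7% of 19773 genes. The fit of the 6 AtCKX1 libraries alone called 2 of its 15 genes higher, MLOC_60700 and MLOC_75620, and 1 lower, MLOC_54756, against 16.8% and 12.7% of 19574 genes. In wild-type the median log2 fold change of the 28 genes higher in wild-type was -0.27, where that of all genes tested was 0.01. In AtCKX1 the median of the 28 was 1.09, where that of all genes tested was -0.01. It was 3.78 in the 11 genes that stood out in AtCKX1 10DAG replicate 2 and 0.11 in the other 17. These 11 were grouped by their level at 10DAG, so the AtCKX1 medians are a description only.

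In MLOC_75620 and MLOC_16006 the AtCKX1 ages did not overlap, with the older seedlings higher. MLOC_75620 had 0.416, 0.436 and 0.263 CPM in AtCKX1 at 10DAG against 0.0470, 0.0210 and 0.118 CPM in AtCKX1 at 1DAG, a log2 fold change of 2.50 (SE, the standard error, 0.65, adjusted p = 0.00724). MLOC_16006 had 0.532, 0.249 and 0.184 CPM at 10DAG against 0, 0 and 0.142 CPM at 1DAG, a log2 fold change of 2.68 (SE 0.86, adjusted p = 0.0205), but it passed the filter through its wild-type counts and was not tested in the fit of the AtCKX1 libraries alone. MLOC_60700 rose by 1.78 (SE 0.57, adjusted p = 0.0202), with 1.43, 0.333 and 0.630 CPM at 10DAG against 0.164, 0.147 and 0.354 CPM at 1DAG, and its ages overlapped at 1 library. The calls of MLOC_16006 and MLOC_60700 were lost without AtCKX1 1DAG replicate 1 or 2 or AtCKX1 10DAG replicate 1. The call of MLOC_75620 held whichever 1 library was left out. That of MLOC_52240, below, also held, but only just without AtCKX1 10DAG replicate 2 (edgeR adjusted p = 0.0499). MLOC_52240 then rested on 8 and 0 counts at 10DAG against 0, 1 and 0 at 1DAG.

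The other 5 genes called higher at 10DAG in AtCKX1 were MLOC_49609, MLOC_52761, MLOC_52240, MLOC_47391 and MLOC_312, all of them among the 11 genes that stood out in AtCKX1 10DAG replicate 2. These 5 also passed the filter only through their wild-type counts, so their calls are a description and no evidence of a rise with age. Their log2 fold changes were 6.82, 5.59, 5.57, 5.35 and 4.25, with standard errors of 2.32, 1.87, 1.51, 1.59 and 1.39 and adjusted p of 0.0317, 0.0296, 0.0091, 0.0142 and 0.0226. In each of the 5 genes the libraries of the ages overlapped, with 10DAG replicate 1 or 3 at 0. Without AtCKX1 10DAG replicate 2, 4 genes were called higher, MLOC_52240, MLOC_16006, MLOC_60700 and MLOC_75620, and 2 lower, MLOC_28102 and MLOC_54756. The calls of MLOC_49609, MLOC_52761, MLOC_47391 and MLOC_312 therefore depended on that library, and they were lost as well without AtCKX1 1DAG replicate 2. Leaving out AtCKX1 1DAG replicate 1 left 3 genes called higher, and leaving out 1DAG replicate 2 left 2.

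MLOC_54756 fell with age in both genotypes. In AtCKX1 its log2 fold change was -3.68 (SE 0.57, adjusted p = 0.000263), and in wild-type it was -1.56 (SE 0.26, adjusted p = 0.00362). These calls held without any 1 library. MLOC_79984 was the other gene called lower at 10DAG in AtCKX1, by -1.24 (SE 0.43, adjusted p = 0.0288), with 0.139, 0.125 and 0.289 CPM at 10DAG against 0.235, 0.524 and 0.472 CPM at 1DAG. Its ages overlapped, and the call was lost without AtCKX1 1DAG replicate 2 or 3, without AtCKX1 10DAG replicate 1 or 2 and with the 6 AtCKX1 libraries alone (adjusted p = 0.0541).

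In wild-type the only gene of the 31 called higher at 10DAG was MLOC_12653, with a log2 fold change of 1.098 (SE 0.26, adjusted p = 0.0145), while MLOC_75620 had 1.105 (SE 0.50, adjusted p = 0.114). The call was lost without wild-type 1DAG replicate 1 or 2 or without wild-type 10DAG replicate 3. In AtCKX1 the same gene had a log2 fold change of 0.53 (SE 0.19, adjusted p = 0.0321), below the limit of 1. The other wild-type calls were falls, with log2 fold changes of -1.48 in MLOC_35134 (SE 0.33, adjusted p = 0.0108), -1.44 in MLOC_31095 (SE 0.34, adjusted p = 0.0138) and -1.25 in MLOC_28102 (SE 0.40, adjusted p = 0.0423), besides MLOC_54756. The call of MLOC_31095 was lost without wild-type 10DAG replicate 1, and that of MLOC_28102 held without wild-type 1DAG replicate 3 but was lost without any other of the 6 wild-type libraries. In 10 of the 28 genes higher in wild-type all 3 wild-type libraries at 10DAG lay below all 3 at 1DAG. In the other 18 they overlapped. The matching share of all genes was not counted, so these numbers are a description only.

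**Figure D5:**
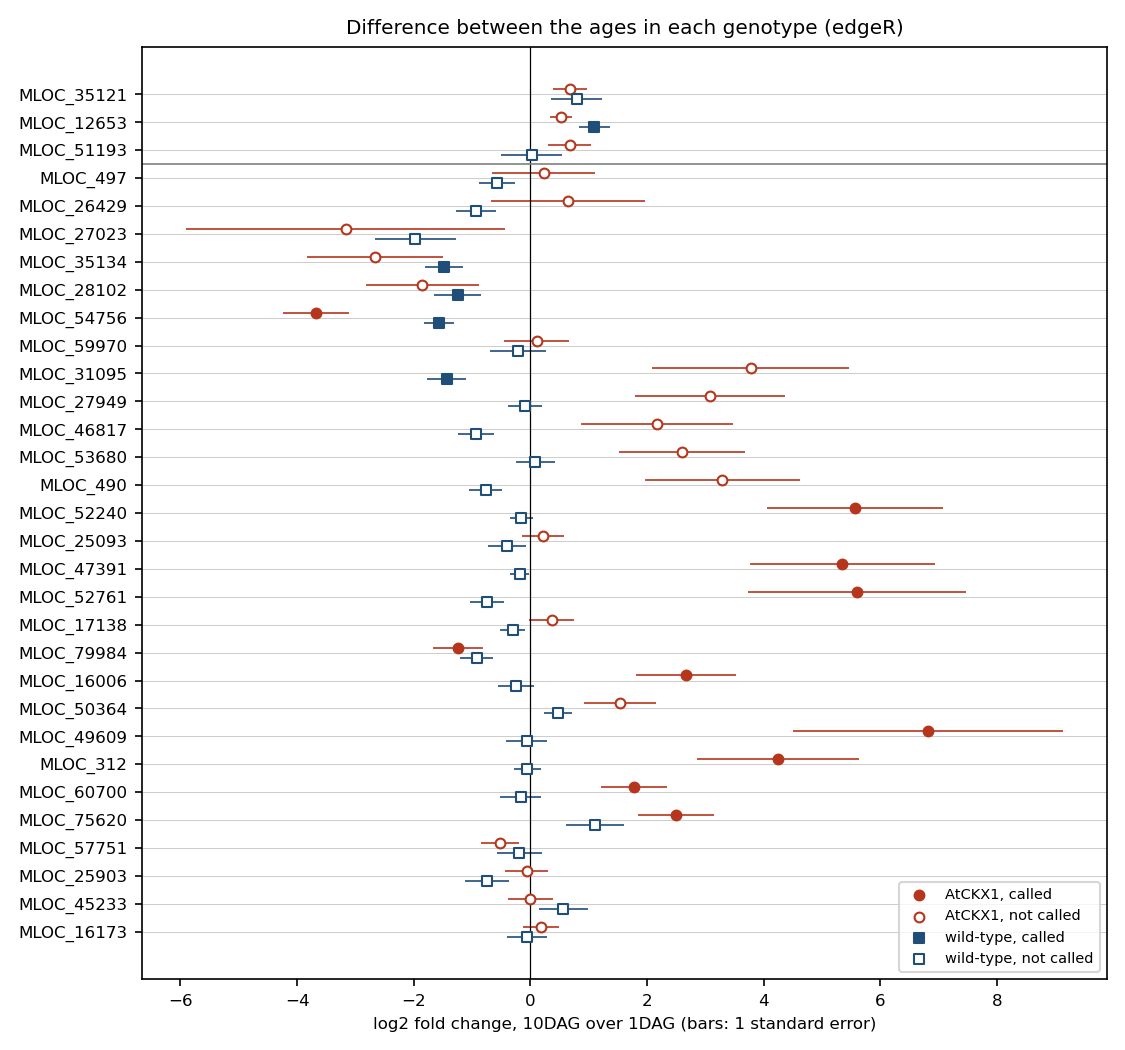
Log2 fold change of each gene between 10DAG and 1DAG, in AtCKX1 (circles) and wild-type (squares), with bars of 1 standard error. Filled symbols mark genes that passed both limits, 10 in AtCKX1 (6 of them tested only through their wild-type counts) and 5 in wild-type, and the genes of AtCKX1 10DAG replicate 2 have the longest bars to the right.

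Whether the age effect itself differed between the genotypes was tested as an interaction over the 12 libraries, where the same 16 genes passed the filter through their wild-type counts. None of the 31 genes was called by edgeR in either direction, against 0.406% of 20212 genes called with the larger effect in AtCKX1 and 0.0792% with the smaller. At an unadjusted p under 0.05 there were 11 of the 31 genes, and 1450 of all 20212. Apart from MLOC_54756, MLOC_60700 and MLOC_16006, these 11 genes all belonged to the group that stood out in a single AtCKX1 library. All of the 11 except MLOC_54756 and MLOC_60700 passed the filter through their wild-type counts. The share at this unadjusted p was thus higher among the 31 genes than among all genes. It rested mainly on a single AtCKX1 library and on genes tested through their wild-type counts. It is therefore no sound evidence that age effects differed more often among the 31 genes. So few of all genes were called by edgeR that none among the 31 says little about them. DESeq2 called 2 of the 31, against 1.03% of 20608 genes, namely MLOC_52761 with a difference of 5.77 on the log2 scale (adjusted p = 0.021) and MLOC_16006 with 3.06 (adjusted p = 0.0365), both among those 16. By edgeR the differences of these genes were 6.37 (SE 2.00, adjusted p = 0.397) for MLOC_52761 and 2.95 (SE 1.03, adjusted p = 0.449) for MLOC_16006. No gene of the 31 was thus called by both tools.

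In the list of cytokinin genes the calls lay between the ages. In AtCKX1 9 of its 11 genes and in wild-type 8 of the 8 tested were higher at 10DAG, with 0 lower. The list was drawn from genes the study had called higher at 10DAG on the same wild-type libraries, apart from 1 gene, so this direction is no independent evidence. By edgeR none of the 11 was called for a different age effect between the genotypes. With 0.406% and 0.0792% of all genes called in the 2 directions, none among 11 genes carries no information about the list.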

How the data were processed

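A total of 12 libraries, 3 per group, were analysed. Per the labels and the study's methods, the authors trimmed reads, mapped these to the Morex genome (IBSC_v1) with TopHat, counted them per gene with HTSeq 0.6.0 with regard to strand, and compared ages with DESeq2. The deposited values are raw counts, with no normalization by the authors. CPM were computed from the reads in genes of each library. Counts were tested in R 4.3.3 with edgeR 4.0.16 (filterByExpr, TMM, robust quasi-likelihood, Benjamini-Hochberg over all genes tested). AtCKX1 ages and the interaction were fitted on 12 libraries, wild-type ages on the 6 wild-type libraries, and DESeq2 1.42.0 was an alternative. Standard errors, the fold change over the root of the statistic, are approximate. The replicates are separate pools, and intervals cover counting error only. The genes, the lists and the naming rule (widest margins, highest levels, genes near 0, annotated, called or nearest the limit) were chosen with earlier results of these data known. The method was tested on simulated data. Functions came from the readable part of the study's supplementary tables, without their values. The identifiers matched none in the gene table at hand, so positions and sequences were not used here. Quantitative PCR and imaging were not analysed here.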

Additional observations from a re-analysis of the deposited data

How the results depend on the processing

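With 3 libraries per group, and most of these genes at a few counts per library in AtCKX1, the limits of the rule set the size of the lists more than the scaling did. Genes higher in AtCKX1 numbered 3, and 10 with a looser margin of 5/4, 1 and 0 with margins of 2 and 4, 1 with a mean CPM of at least 2, 10 with no minimum, 83 from the 1DAG libraries alone and 228 from the 10DAG libraries alone. Genes higher in wild-type numbered 28, and 15 with a mean CPM of at least 2, 73 with no minimum, 151 from 1DAG alone and 178 from 10DAG alone. Genes near 0 in AtCKX1 numbered 5, and 12 with a mean CPM of at least 0.5, 3 with at least 2, 41 with no minimum, 1 with near 0 as under 0.05 CPM, 13 with near 0 as under 0.5 CPM and 12 without wild-type 1DAG replicate 1 and AtCKX1 10DAG replicate 2, a pair chosen after seeing the data. Leaving out each library in turn gave 2 to 6 genes higher in AtCKX1 (6 without wild-type 1DAG replicate 3), 28 to 33 higher in wild-type and 5 to 14 near 0 (14 without AtCKX1 10DAG replicate 2). A margin cannot shrink when a library is left out, so only the minimum mean CPM could remove a gene.

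Between ages in AtCKX1, 8 genes were higher and 2 lower. These counts were 0 and 0 with at least 10 counts in every library, which left 9 of the 31 genes to test, 1 and 1 with glmTreat against a 2-fold change, and 2 and 1 with the 6 AtCKX1 libraries alone, which left 15. Leaving out each library gave 2 to 12 higher and 1 to 2 lower. In wild-type, 1 higher and 4 lower became 0 and 0 with glmTreat, and leaving out each library gave 0 to 1 higher and 2 to 6 lower. For the interaction, 0 higher became 2 with DESeq2, and leaving out each library gave 0 in both directions. No result changed its direction. For the ratios of genotype means this was fixed by the rule, which sets every library of a genotype above those of the other. The replicate numbers did not pair the samples, since the correlations of deviations between same-numbered libraries ran from -0.339 to 0.363. With the replicate block 7 genes were higher and 2 lower in AtCKX1, 1 higher and 3 lower in wild-type, and 0 for the interaction, with MLOC_49609 and MLOC_28102 the calls lost. Over all alternatives, 49 values of single genes lost their call, 10 moved without a test and 611 did neither. Many of the 611 were ratios of genotype means, so this number is no measure of stability. Other scalings and filters kept the counts within 1.5 times. The depth limits what can be said of AtCKX1 levels under about 3 counts per library.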
